A study of Mus musculus with 18 samples.

Results

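C-type lectin receptors are taken here as every gene whose annotated symbol begins with Clec and a digit, or with Cd209. The array named 35 such genes among 17711 genes in all, and each was read from its probe with the highest mean. A probe was called detected in a group when its signal passed a detection p of 0.05, set against negative controls, on both arrays. By that measure 23 of the 35 genes were detected in at least 1 group and were tested. The list holds 15 genes detected on all 18 arrays and 8 more that entered through some groups only. Such a gene had to be higher where it was seen, so the counts given further on describe the tested genes and not all 35. The 12 genes left out were Cd209g, Clec12a, Clec1b, Clec9a, Clec4a2, Clec2e, Clec2g, Clec2h, Clec2l, Clec2m, Clec14a and Clec3a. Of these, 8 were detected on 0 arrays and 4 on 1 to 3 arrays.

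The cells came from MacGreen mice, a C57Bl/6J line whose Csf1r promoter drives EGFP in myeloid cells, aged 10 to 16 weeks. Sterile foreign objects were placed loose in the peritoneal cavity, where they become wrapped in a tissue capsule. Brightly EGFP-positive cells were sorted and pooled, and 2 arrays were run for each of 9 groups. Capsule cells were freed with collagenase from the tissue around the object at day 7, 14, 21 and 28. Lavage cells were washed from the cavity at day 0, from mice without an implant, and at day 2, 4, 7 and 14 after implantation. Capsules and lavage came from different mice, and whether both arrays of a group stem from separate pools of mice is not stated. The p-values therefore measure only how far paired arrays differ, a spread that may be technical. Of 9 macrophage and myeloid markers listed, 5 were measured, and these (Adgre1, Itgam, Lyz2, Cd14 and Aif1) were detected in all 9 groups. The other 4, Csf1r among them, were not analysed here.

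C-type lectin receptors recognise sugars, lipids and remnants of dead cells on microbes and on the host's own tissue. Clec7a (Dectin-1) signals through a tyrosine motif of its own, while Clec4n (Dectin-2), Clec4e (Mincle) and Clec4d (MCL) pair with the Fc receptor gamma chain, Fcer1g. Clec5a (MDL-1) pairs with DAP12, the product of Tyrobp. These routes run through the kinase Syk and the adaptor Card9. Other members carry an inhibitory motif, as some but not all Clec4a receptors of the DCIR type do. Still others mainly capture and take up ligand, as the mouse relatives of DC-SIGN (Cd209a to Cd209g) and the galactose-binding Clec10a (MGL1) do. Clec4g (LSECtin) is best known from sinusoidal endothelium of liver and lymph node. Resident cells of the peritoneal cavity are a known site of Clec7a and of Cd209b (SIGN-R1).

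Precision rests on 2 arrays a group and on 1 spread estimated over the whole set. The number of detected probes ran from 16442 to 19345 an array, and the 2 arrays of a group correlated at 0.989 to 0.993. The highest intensity of any member probe was 24137.4, against an array maximum of 71532. Levels are log2 intensities after background correction and quantile normalisation, so a difference of 1 is a doubling of intensity. Differences carry limma's standard error (SE) and a Benjamini-Hochberg adjusted p over 10806 genes, with a threshold of 0.05. Replicate 1 of capsule day 7 and of every lavage group shared slide 1, and replicate 2 of those groups shared slide 2. Capsule day 14 lay on slide 3, and capsule day 21 and 28 on slide 4. For these later capsule groups, slide and group cannot be told apart when they are set against lavage or capsule day 7.

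Each of the 4 genes Clec4g, Clec7a, Clec4d and Clec4e took a course of its own. Clec4g read near background in early cells and reached its highest level in lavage cells at day 14, 7.41 log2 units above day 0 (SE 0.31, limma adjusted p = 2.26e-09). Clec7a was highest in capsule cells at day 7, where it stood 2.09 above lavage of the same day (SE 0.18, limma adjusted p = 1.52e-06). Clec4d was high in the lavage until day 4 and fell by 1.94 at day 7 relative to day 0 (SE 0.24, limma adjusted p = 4.53e-05). Clec4e, its neighbour and binding partner, was highest in capsule cells of day 14 and 21 and stood 2.02 above lavage at day 14 (SE 0.18, limma adjusted p = 2.12e-06). In pooled RNA, fewer cells of a type and less RNA per cell cannot be told apart.

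**Figure D1:**
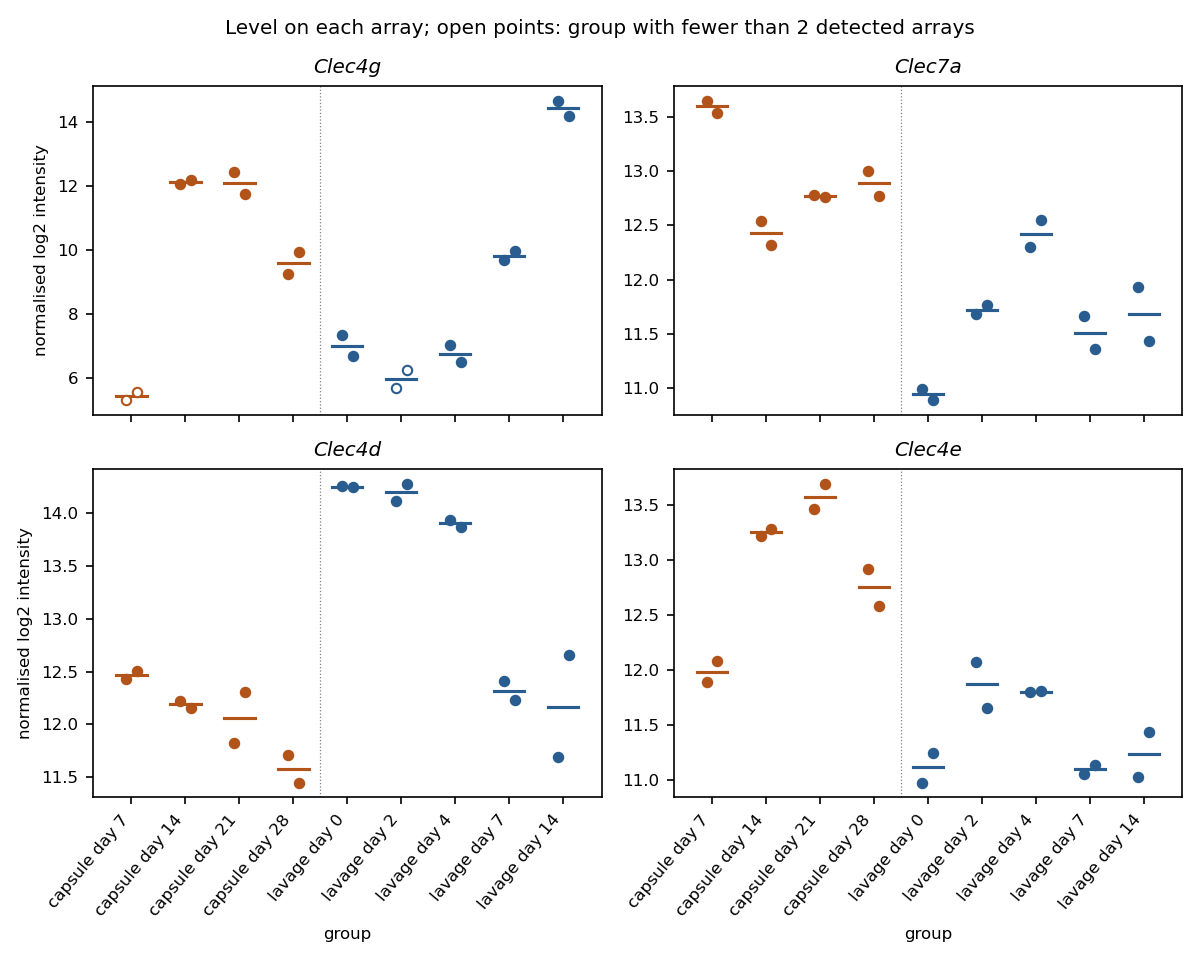
Normalised log2 intensity (vertical axes, each with its own range) of Clec4g, Clec7a, Clec4d and Clec4e on each of the 18 arrays, by group; points are arrays, bars are group means, orange is capsule and blue is lavage, and open points mark groups with fewer than 2 detected arrays. Clec4g spans from 5.45 in capsule day 7 to 14.42 in lavage day 14, Clec4d is near 14 in lavage of day 0 to 4, and Clec7a and Clec4e reach their highest group means in capsule day 7 and day 21.

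RefSeq places Clec7a, Clec4d and Clec4e with 20 other members on mouse chromosome 6, so 23 of the 35 lie there, and Clec4g with 7 others on chromosome 8. The start regions of the 4 genes are shown because adjacent genes of 1 cluster, Clec4d and Clec4e, took different courses. Each run below holds 250 bases before and 50 after the annotated start in GRCm38.p6, read 5′ to 3′ on the gene's strand. Capitals mark GAGGAA or its reverse complement, the core bound by PU.1, a factor that myeloid cells depend on.
Clec4d, chr6:123261857-123262156, plus strand: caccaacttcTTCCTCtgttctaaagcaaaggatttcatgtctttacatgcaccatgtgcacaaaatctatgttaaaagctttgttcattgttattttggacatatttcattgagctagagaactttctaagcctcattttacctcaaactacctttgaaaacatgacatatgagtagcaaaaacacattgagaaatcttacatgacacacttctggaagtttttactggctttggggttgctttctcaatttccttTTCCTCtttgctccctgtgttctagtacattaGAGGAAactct
Clec4e, chr6:123289822-123290121, minus strand: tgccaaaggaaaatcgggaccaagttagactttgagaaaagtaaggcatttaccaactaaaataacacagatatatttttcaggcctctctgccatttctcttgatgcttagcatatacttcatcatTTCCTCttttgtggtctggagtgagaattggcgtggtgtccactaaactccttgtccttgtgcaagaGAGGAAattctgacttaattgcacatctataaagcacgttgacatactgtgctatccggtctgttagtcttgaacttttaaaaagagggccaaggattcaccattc
Clec7a, chr6:129472730-129473029, minus strand: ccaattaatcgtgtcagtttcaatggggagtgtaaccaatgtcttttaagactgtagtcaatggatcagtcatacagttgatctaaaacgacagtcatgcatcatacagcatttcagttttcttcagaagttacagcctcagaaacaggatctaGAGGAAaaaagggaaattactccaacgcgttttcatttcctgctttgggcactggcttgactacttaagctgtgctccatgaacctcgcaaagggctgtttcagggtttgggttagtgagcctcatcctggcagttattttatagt
Clec4g, chr8:3720602-3720901, minus strand: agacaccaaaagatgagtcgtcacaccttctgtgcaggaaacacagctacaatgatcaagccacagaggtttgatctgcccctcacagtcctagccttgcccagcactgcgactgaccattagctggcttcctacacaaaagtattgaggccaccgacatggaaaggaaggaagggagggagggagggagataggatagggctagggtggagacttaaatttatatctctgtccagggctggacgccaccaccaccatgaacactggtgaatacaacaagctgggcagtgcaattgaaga
The core occurred 3 times in the window of Clec4d, 2 times in that of Clec4e, 1 time in that of Clec7a and 0 times in that of Clec4g. Of 22 start windows, which came from 19 tested members, 13 (59.1%) held it, against 28.3% of 32851 windows of all genes. Clec7a, Clec2i and Clec4a3 had 2 overlapping windows each, so these counts are of windows and not of genes. By gene, 12 of the 19 held the core. The C/EBP letters TTNCNNAA were in 13 member windows (59.1%), against 40.7% of all windows. The STAT6 motif, TTC and GAA with 4 bases of any kind between them, was in 6 windows (27.3%), against 6.95% of all. Both Clec7a windows were among these 6. The AP-1 letters TGANTCA were in 1 (4.55%), against 7.81% of all. Both strands were searched, matches of different motifs may overlap, and several members are relatives that share sequence. A match is a description of letters and not evidence of binding.

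The tested members differed more between groups than genes in general. The range of group means had a median of 2.66 log2 units over the 23 tested members and 1.05 over all genes tested. An F test over the 9 groups in limma called 21 of the 23, beside 78.7% of all genes tested. The 2 not called were Clec11a and Clec18a, both read near background.

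**Figure D2:**
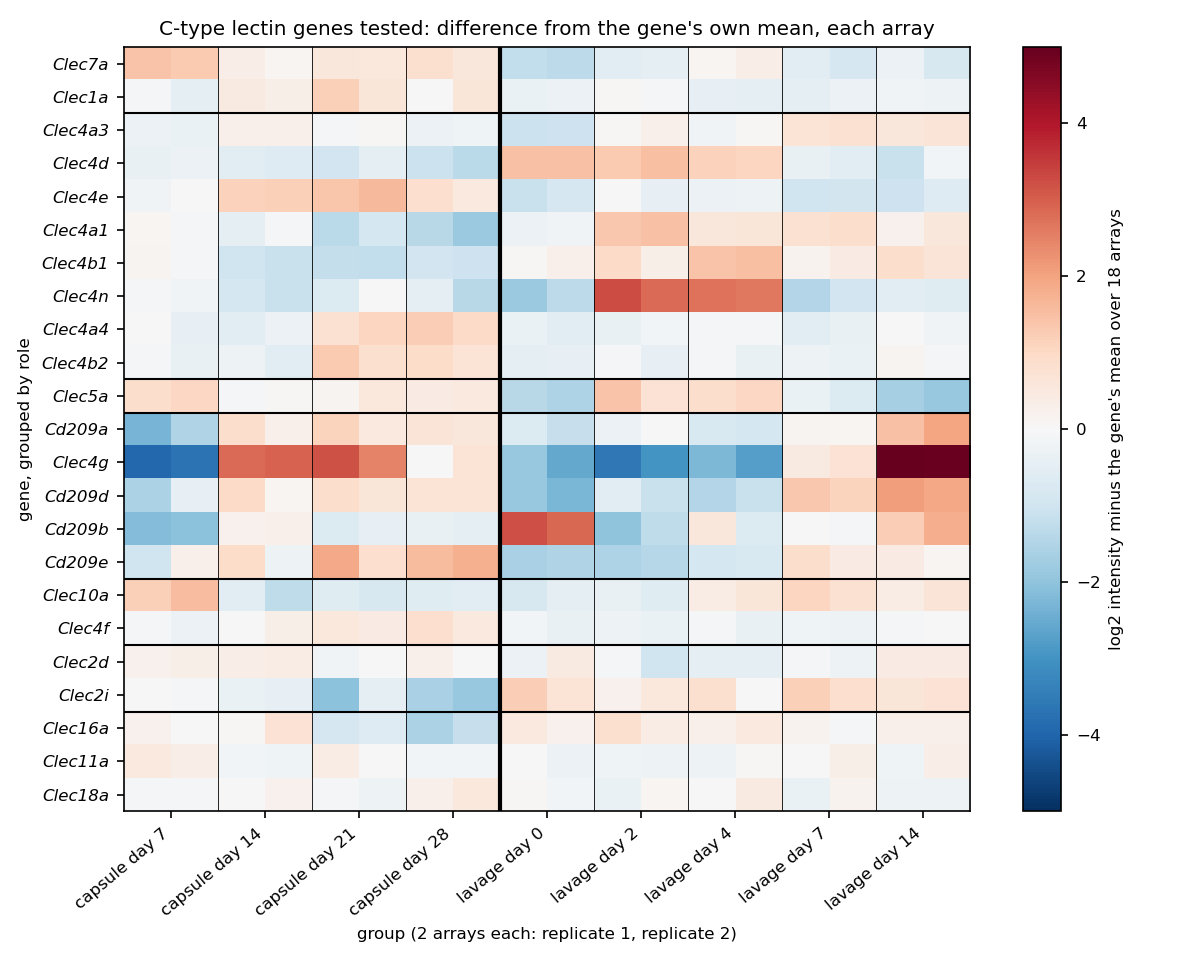
Log2 intensity of each of the 23 tested members minus that gene's own mean over 18 arrays (colour; red higher, blue lower), with arrays in columns by group and genes in rows by role; colours compare arrays within a row only. Red runs of Clec4n in lavage of day 2 and 4, of Cd209b in lavage of day 0 and of Clec4g in lavage of day 14 stand out, and Clec4e is red in capsule cells of day 14 to 28.

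In the lavage, more tested members were higher than lower at each day after implantation. At day 2, 7 members were higher and 2 lower than at day 0, where 25% of all genes changed (13.3% higher, 11.7% lower). Day 4 gave 8 higher and 1 lower, where 28% of all genes changed (15.4% higher, 12.6% lower). By day 7 there were 9 higher and 2 lower, where 28.6% of all genes changed (15.1% higher, 13.5% lower). At day 14, 10 were higher and 2 lower, with a median of 0.34 over the members and 0.03 over all genes, of which 19.8% changed (10.3% higher, 9.5% lower). This last count was 7 without lavage day 14 replicate 1. These comparisons share the day 0 arrays.

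Between neighbouring days after implantation, the largest count of members was called from day 4 to day 7. There, 4 members were higher and 6 lower at day 7 than at day 4, while 10.3% of all genes changed (4.39% higher, 5.89% lower). Day 4 against day 2 had 4 higher and 1 lower, while 11.3% of all genes changed (6.75% higher, 4.6% lower), a count of 1 or 2 without any 1 of the 4 arrays and of 2 under median scaling. Day 14 against day 7 had 3 higher and 1 lower, while 13.1% of all genes changed (6.28% higher, 6.82% lower). The turn between day 4 and day 7 was made up of falls of Clec4n, Clec4d, Clec5a, Clec4b1, Clec7a and Clec4e and of rises of Clec4g, Cd209d, Cd209e and Clec4a3. Among these, neither Clec4e nor Cd209e was called without any 1 of the 4 arrays compared. Clec4e was also lost under median scaling (limma adjusted p = 0.0643). Cd209e was also lost with the authors' log2 values (limma adjusted p = 0.0582), without the detection filter (0.07) and without some arrays outside the comparison. Over the same step 4 of 5 mast cell markers were higher at day 7, with a median of 1.29, and 5 of 10 tested neutrophil markers were lower and 1 higher. Their part in the members' changes was not tested.

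Capsule cells differed from lavage cells of the same day in both directions. At day 7, 4 members were higher and 6 lower in capsule cells, where 24.1% of all genes changed (11.6% higher, 12.5% lower). At day 14, 4 were higher and 9 lower in capsule cells, where 35.3% of all genes changed (16.8% higher, 18.4% lower), with a median of -0.34 over the members and -0.02 over all genes. Under median scaling, which moved the median of all genes at day 14 to 0.39, the split turned to 7 higher and 5 lower. The day 14 count was 6 without lavage day 14 replicate 2 and 8 without capsule day 14 replicate 2. At both days the higher members included Clec7a, Clec4e and Clec5a, and the lower ones included Clec4g, Cd209a, Cd209b and Cd209d. The capsule to lavage difference itself changed between day 7 and day 14 for 7 members, 3 toward higher and 4 toward lower, where 11.5% of all genes changed (4.66% higher, 6.81% lower). Markers of other cells also differed at day 7, when 4 of 5 mast cell markers were lower in capsule than in lavage cells, with a median of -2.48. Of 6 B cell markers, 4 were lower and 1, Blnk, was higher, with a median of -2.18. The part of these cells in the members' differences was not tested.

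Over time in the capsule, 6 members were higher and 5 lower at day 14 than at day 7, where 23.9% of all genes changed (11.8% higher, 12.1% lower). Day 21 against day 14 gave 2 higher and 2 lower, where 9.9% of all genes changed (5.68% higher, 4.22% lower). That count was 2 without capsule day 14 replicate 2 and without capsule day 21 replicate 1. Day 28 against day 21, on 1 slide, had 1 call, the fall of Clec4g, where 0.935% of all genes changed (0.25% higher, 0.685% lower). Across the whole course, 9 members were higher and 8 lower at day 28 than at day 7, where 31.2% of all genes changed (16.2% higher, 15% lower).

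**Figure D3:**
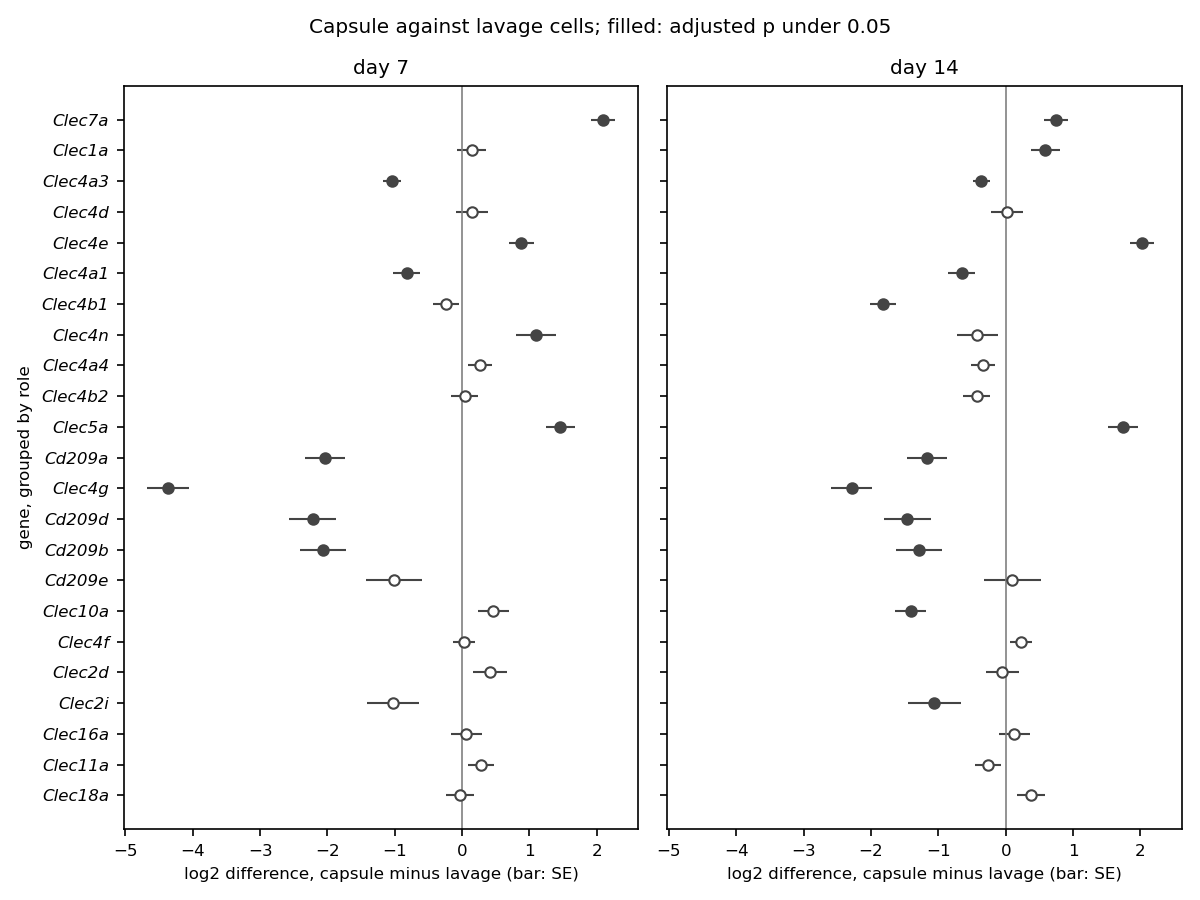
Log2 difference of capsule minus lavage cells (horizontal axis; points, with bars for 1 limma SE either side) for the 23 tested members at day 7 and day 14; filled points passed an adjusted p of 0.05. Clec7a, Clec4e and Clec5a lie to the right at both days, and Clec4g, Cd209a, Cd209b and Cd209d to the left.

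Clec7a binds beta-glucans and starts phagocytosis and cytokine release. In capsule cells it read 13.65 and 13.54 at day 7, 12.54 and 12.32 at day 14, 12.78 and 12.76 at day 21, and 13 and 12.77 at day 28. Lavage cells had 10.99 and 10.89 at day 0, 11.68 and 11.76 at day 2, 12.30 and 12.55 at day 4, 11.66 and 11.36 at day 7, and 11.93 and 11.43 at day 14. Both capsule arrays lay above both lavage arrays at day 7 and at day 14, and day 0 was below every other array. Mean levels of capsule day 14 and lavage day 4 were 12.43 and 12.42, and their arrays overlapped.

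At lavage day 4 Clec7a was 2.8-fold higher than at day 0 (log2 1.48, SE 0.18, limma adjusted p = 3.85e-05). At day 2 it was 0.78 higher than at day 0 (limma adjusted p = 0.00473). Between day 4 and day 7 it fell by 0.91 (SE 0.18, limma adjusted p = 0.00461), a call lost without lavage day 4 replicate 2 (0.055) or lavage day 7 replicate 2 (0.0574). The gains over day 0 of 0.57 at day 7 and 0.74 at day 14 had limma adjusted p of 0.0264 and 0.00861. The first was lost without day 0 replicate 1 (0.0689), day 0 replicate 2 (0.138) or day 7 replicate 1 (0.188), and the second without day 14 replicate 1 (0.101) or day 0 replicate 2 (0.0668). The capsule cells of day 7 had 4.25-fold the lavage level, and the difference was 2.00 within slide 1 and 2.18 within slide 2. At day 14 capsule cells were 0.75 above lavage (SE 0.18, limma adjusted p = 0.00461), a call lost without lavage day 14 replicate 2 (limma adjusted p = 0.057). Within the capsule, Clec7a fell by 1.17 at day 14 relative to day 7 (limma adjusted p = 0.000375), but fell by 0.49 under median scaling (limma adjusted p = 0.0861). At day 28 it differed from day 7 by -0.71 (limma adjusted p = 0.00829), and by -0.02 under median scaling (0.955). That call was also lost without capsule day 7 replicate 1 (0.0546) or capsule day 28 replicate 2 (0.073).

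The other tested gene of the Dectin-1 cluster, Clec1a, a receptor of myeloid and endothelial cells, was detected in capsule cells of day 14, 21 and 28 only. Its group means there were 6.06, 6.57 and 6.00. In capsule cells of day 14 it was at least 1.19-fold higher than in lavage (limma adjusted p = 0.0489), a call lost with an offset of 50, without background correction, without the detection filter and without any 1 of the 4 arrays compared (limma adjusted p from 0.0698 to 0.183). A second Clec1a probe, detected on 5 arrays, gave -0.10 for that comparison. Among the not tested genes of this cluster were Clec9a, a dead-cell receptor of cross-presenting dendritic cells, and Clec12a, an inhibitory receptor.

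In the Dectin-2 cluster, 8 of 9 members were tested. Clec4n, the receptor for fungal mannans known as Dectin-2, had the clearest early course. In capsule cells it had 9.09 and 8.97 at day 7, 8.29 and 8.02 at day 14, 8.45 and 9.19 at day 21, and 8.69 and 7.78 at day 28. Lavage cells read 7.31 and 7.86 at day 0, 12.43 and 12 at day 2, 11.88 and 11.78 at day 4, 7.68 and 8.18 at day 7, and 8.59 and 8.56 at day 14. The 4 arrays of day 2 and day 4 stood above all others, with no overlap.

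At day 2 Clec4n was 24.7-fold higher than at day 0 (log2 4.63, SE 0.30, limma adjusted p = 1.66e-07), and at day 4 it was 18.9-fold higher (limma adjusted p = 4.6e-07). Between day 4 and day 7 it fell by 3.90 (SE 0.30, limma adjusted p = 3.86e-06). Within slides the day 2 rise was 5.11 and 4.14. A capsule excess of 1.10 at day 7 (SE 0.30, limma adjusted p = 0.0179) was lost under median scaling and without lavage day 7 replicate 1 (0.144), capsule day 7 replicate 1 (0.0906) or capsule day 7 replicate 2 (0.0583).

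Neutrophils can express several of these receptors, and their markers moved over the same days. Of 12 neutrophil genes listed, 8 were detected at lavage day 2 and at day 4, against 4 at day 0. The mean log2 level of that list on each array ran from 8.99 to 9.32 at day 2 and from 8.85 to 9.02 at day 4, against 6.72 to 6.89 at day 0. The granule genes Ngp, Mmp8 and Mpo were not detected on either day, while the granule genes Camp, Ltf and Mmp9 were detected on both days. At day 7 the list ran from 7.71 to 8.15 in capsule cells and from 7.59 to 7.73 in lavage cells. The part of neutrophil RNA in the receptor levels was not tested.

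Clec4e binds trehalose dimycolate of mycobacteria and a protein released by dying cells. Its level in capsule cells was 11.89 and 12.08 at day 7, 13.22 and 13.28 at day 14, 13.46 and 13.69 at day 21, and 12.92 and 12.58 at day 28. In lavage cells it was 10.98 and 11.25 at day 0, 12.07 and 11.66 at day 2, 11.80 and 11.81 at day 4, 11.06 and 11.14 at day 7, and 11.03 and 11.44 at day 14. The 6 capsule arrays of day 14 to 28 lay above all others. Capsule day 7 overlapped with lavage day 2, and lavage of day 0, 7 and 14 overlapped.

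Capsule cells had 4.04-fold the lavage level of Clec4e at day 14 and 1.84-fold at day 7 (log2 0.88, SE 0.18, limma adjusted p = 0.00306), with 0.83 within slide 1 and 0.94 within slide 2. Between day 7 and day 14 this difference grew by 1.13 (SE 0.26, limma adjusted p = 0.013). That growth missed the threshold without lavage day 14 replicate 1 (limma adjusted p = 0.0569). In the capsule Clec4e was 1.27 higher at day 14 than at day 7 (SE 0.18, limma adjusted p = 0.000276). The early lavage rise was smaller, 0.75 at day 2 (limma adjusted p = 0.00825) and 0.68 at day 4 (limma adjusted p = 0.013). It was lost at day 2 without day 0 replicate 1 (0.0839) or day 2 replicate 1 (0.105), and at day 4 without day 0 replicate 1 (0.111), day 4 replicate 1 (0.0609) or day 4 replicate 2 (0.0611). A second probe followed the first over the 18 arrays (r = 0.97) and also gave 2.02 for capsule against lavage at day 14. At capsule day 28 Clec4e was 0.77 above day 7 (limma adjusted p = 0.0066), a call lost on the second probe (0.29, limma adjusted p = 0.218) and without capsule day 7 replicate 1 (0.0539) or capsule day 28 replicate 1 (0.0683).

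Clec4d, the partner that helps Mincle reach the cell surface, is constitutively present on many myeloid cells. Capsule cells had 12.43 and 12.51 at day 7, 12.22 and 12.16 at day 14, 11.82 and 12.31 at day 21, and 11.71 and 11.45 at day 28. Lavage cells read 14.26 and 14.25 at day 0, 14.12 and 14.28 at day 2, 13.94 and 13.87 at day 4, 12.41 and 12.23 at day 7, and 11.69 and 12.66 at day 14. The 6 lavage arrays of day 0 to 4 lay above all others with a gap, and the 2 arrays of lavage day 14 differed by more than those of any other group.

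Relative to day 0, Clec4d fell by 1.94 at lavage day 7, with within-slide changes of -1.85 and -2.02, and fell by 2.08 at day 14 (SE 0.24, limma adjusted p = 3.39e-05). Between day 4 and day 7 it fell by 1.59 (SE 0.24, limma adjusted p = 0.000924). Day 2 and day 4 differed from day 0 by -0.05 and -0.35, with limma adjusted p of 0.912 and 0.34. Capsule minus lavage was 0.15 at day 7 and 0.02 at day 14 (SE 0.24 each), with limma adjusted p of 0.714 and 0.966. Under median scaling the day 14 difference became 0.77 (limma adjusted p = 0.0209). In the capsule Clec4d fell by 0.89 at day 28 relative to day 7 (limma adjusted p = 0.0142), which was lost under median scaling (0.234) and without capsule day 7 replicate 2 (0.0718) or capsule day 28 replicate 2 (0.0996).

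The Clec4a and Clec4b genes are close copies, so their probes may share signal and the single genes are uncertain. Clec4a3, a DCIR-type receptor, was higher than at day 0 on every later lavage day, by 1.23 at day 2, 0.98 at day 4, 1.78 at day 7 and 1.67 at day 14 (SE 0.13 each; limma adjusted p from 2.84e-07 to 8.37e-05). In capsule cells of day 7 it differed from lavage by -1.04 (SE 0.13, limma adjusted p = 5.07e-05). At day 14 the difference was -0.36 (limma adjusted p = 0.0398), turned to 0.48 under median scaling (0.0268), and was -2.08 on a second probe. For capsule day 14 against day 7 the 2 probes also parted, with 0.57 and -1.21. The call for capsule against lavage at day 14 was not kept without any 1 of the 4 arrays compared. In the lavage the second probe gave 2.16 at day 7 and 1.85 at day 14 against day 0.

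Clec4a1, also DCIR-type, peaked early, at 13.01 ± 0.09 in lavage cells of day 2 against 11.37 ± 0.09 at day 0 (SD, n = 2 each). The rise was 1.64 (SE 0.20, limma adjusted p = 3.8e-05). In the capsule Clec4a1 fell to 9.97 ± 0.32 at day 28, against 11.60 ± 0.12 at day 7 (SD, n = 2 each), a difference of -1.63 (SE 0.20, limma adjusted p = 8.39e-05). Clec4b1, a DCAR-type activating receptor, was 1.31 higher at lavage day 4 than at day 0 (SE 0.19, limma adjusted p = 0.000165). In capsule cells of day 14 it differed from lavage by -1.82 (SE 0.19, limma adjusted p = 5.67e-06), and 2 other probes gave -2.20 and -2.11.

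Late in the capsule, Clec4a4 and Clec4b2 moved the other way. Clec4a4, known as DCIR2 on a subset of dendritic cells, was 1.35 higher at day 21 than at day 14 (SE 0.18, limma adjusted p = 0.000535). Clec4b2 was 1.46 higher (SE 0.20, limma adjusted p = 0.000695), though only 1 of its 2 arrays was detected at capsule day 14 and at capsule day 7. Both stayed higher at day 28, with group means of 8.53 and 6.86, against 7.23 and 5.84 at capsule day 7. Capsule day 14 lay on another slide than day 21 and 28, so slide and day cannot be told apart here. Dendritic cell markers ran from 7.37 to 7.63 at capsule day 21, against 6.97 to 7.04 at day 14. Of that list, Flt3 and Xcr1 were not detected in any group, while Zbtb46, Ccr7, Dpp4, Batf3 and Itgae were detected in every group. T and NK cell markers also stood higher at day 21, in 3 of 5 tested (Cd3d, Cd3g and Klrd1), with a median of 1.30 against 0.58 for the dendritic cell list. The part of these cells in the rise was not tested.

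Clec5a drives inflammatory responses of myeloid cells through DAP12. Its levels in capsule cells were 9.46 and 9.63 at day 7, 8.49 and 8.66 at day 14, 8.72 and 9.13 at day 21, and 9.03 and 9.10 at day 28. In lavage cells they were 7.23 and 7.05 at day 0, 10.04 and 9.33 at day 2, 9.46 and 9.65 at day 4, 8.26 and 7.91 at day 7, and 6.94 and 6.72 at day 14. Every capsule array lay above the lavage arrays of day 0, 7 and 14, while lavage day 2 and 4 overlapped with capsule day 7.

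At day 2 Clec5a was 2.54 above day 0 (SE 0.22, limma adjusted p = 1.56e-06) and at day 4 it was 2.41 above (limma adjusted p = 4.4e-06). Between day 4 and day 7 it fell by 1.47 (limma adjusted p = 0.000719), and between day 7 and day 14 it fell by 1.25 (limma adjusted p = 0.00198). Capsule cells had 2.75-fold the lavage level at day 7 (log2 1.46, limma adjusted p = 0.000255), with 1.20 and 1.72 within slides. At day 14 they had 3.35-fold (log2 1.74, SE 0.22, limma adjusted p = 3.68e-05). Clec4n, also high at lavage day 2 and 4, differed between capsule and lavage at day 14 by -0.42 (SE 0.30, limma adjusted p = 0.316).

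**Figure D4:**
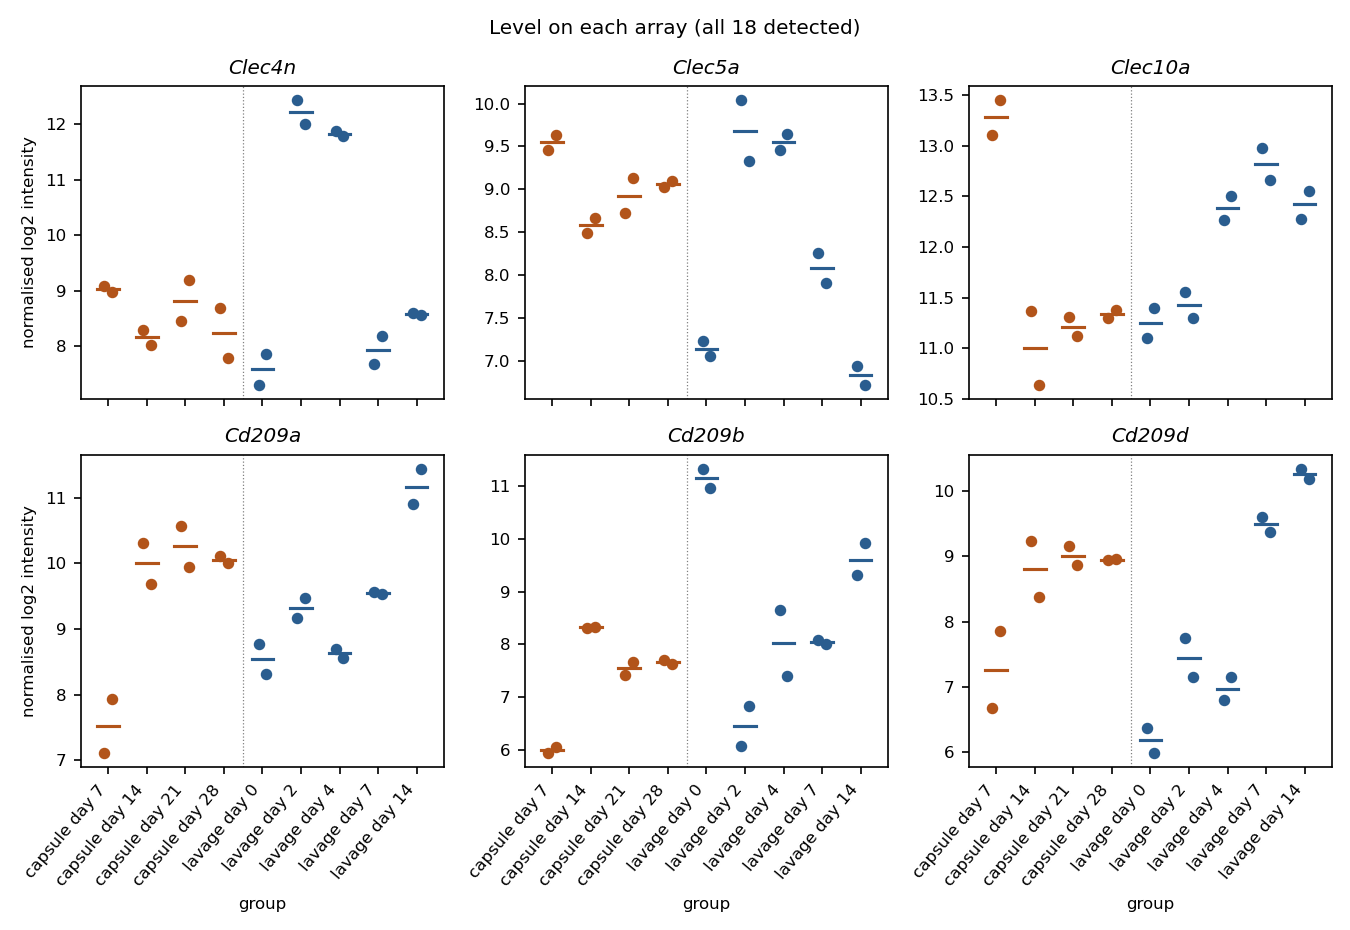
Normalised log2 intensity (vertical axes, each with its own range) of Clec4n, Clec5a, Clec10a, Cd209a, Cd209b and Cd209d on each of 18 arrays, by group; points are arrays, bars are group means, orange is capsule and blue is lavage, and all points were detected. Clec4n and Clec5a are high in lavage of day 2 and 4, Cd209b is highest in lavage of day 0, and Cd209a and Cd209d are highest in lavage of day 14.

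Clec4g binds sugars ending in mannose or N-acetylglucosamine. In capsule cells it read 5.33 and 5.56 at day 7, 12.07 and 12.19 at day 14, 12.43 and 11.74 at day 21, and 9.25 and 9.94 at day 28. Lavage cells had 7.34 and 6.69 at day 0, 5.68 and 6.24 at day 2, 7.02 and 6.49 at day 4, 9.68 and 9.96 at day 7, and 14.65 and 14.19 at day 14. Capsule day 7 was detected on 0 arrays and lavage day 2 on 1. The order of group means placed lavage day 14 apart at the top, then capsule day 14 and 21, which overlapped. Next came lavage day 7 and capsule day 28, which overlapped, and lavage day 0 and 4, which also overlapped, with lavage day 2 and capsule day 7 lowest.

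Most of the rise of Clec4g came between day 7 and day 14. In the lavage it was 6.99-fold above day 0 at day 7 (log2 2.80, SE 0.31, limma adjusted p = 1.52e-05) and 170-fold above day 0 at day 14, with 7.32 within slide 1 and 7.50 within slide 2. From day 7 to day 14 it gained 4.60 (SE 0.31, limma adjusted p = 5.17e-06). In capsule cells of day 7 it was at least 17.4-fold lower than in lavage (limma adjusted p = 3.01e-07). At capsule day 14 it was at least 86.2-fold higher than at capsule day 7 (limma adjusted p = 7.92e-08), yet differed by -2.29 from lavage of the same day (SE 0.31, limma adjusted p = 7.24e-05). At day 28 it fell by 2.49 relative to day 21 (SE 0.31, limma adjusted p = 0.00187), both on 1 slide. At lavage day 2 it differed from day 0 by -1.06 (limma adjusted p = 0.0227), a call lost without day 0 replicate 1 (0.207) or day 2 replicate 1 (0.198).

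Bounds here use the lowest level at which probes were detected, since the signal at capsule day 7 gives no level of its own. A second probe annotated to Clec4g was detected on 3 of 18 arrays and did not follow the first (r = -0.10). Its change at lavage day 14 against day 0 was 0.08, so the course of Clec4g rests on 1 probe. The mean of 6 endothelial markers per array ran from 5.45 to 5.56 in lavage cells of day 14, against 5.72 to 5.81 at day 0. At lavage day 14 Kdr was detected, while Cdh5, Tek, Emcn, Tie1 and Esam were not. In capsule cells the mean ran from 5.98 to 6.00 at day 14, against 5.79 to 5.87 at day 7. Kdr, Emcn and Esam were detected at capsule day 14 and were higher than in lavage. The part of endothelial RNA in the capsule level of Clec4g was not tested.

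Of the other DC-SIGN relatives, Cd209b was highest before implantation. SIGN-R1, its product, captures bacterial polysaccharides and is known on resident peritoneal macrophages. Capsule cells had 5.93 and 6.05 at day 7, 8.31 and 8.33 at day 14, 7.42 and 7.67 at day 21, and 7.70 and 7.63 at day 28. Lavage cells read 11.33 and 10.97 at day 0, 6.06 and 6.82 at day 2, 8.66 and 7.39 at day 4, 8.09 and 8.01 at day 7, and 9.31 and 9.92 at day 14. Both day 0 arrays were above all 16 others.

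Relative to day 0, Cd209b fell by 4.71 at day 2 (SE 0.34, limma adjusted p = 3.16e-07), fell by 3.13 at day 4 and fell by 3.10 at day 7 (limma adjusted p = 1.67e-05 and 1.27e-05). B cell markers were lower than at day 0 in 6, 5, 5 and 4 of 6 tested at day 2, 4, 7 and 14, and mast cell markers in 3, 3, 2 and 4 of 5. Their part in the fall of Cd209b was not tested. At day 14 the difference of Cd209b from day 0 was -1.54 (limma adjusted p = 0.00504), a call lost without day 0 replicate 1 (0.0526) or day 14 replicate 1 (0.0623). Capsule cells differed from lavage by -2.07 at day 7 (SE 0.34, limma adjusted p = 0.000498) and by -1.29 at day 14 (limma adjusted p = 0.00885), the second lost without lavage day 14 replicate 2 (0.0842). Lavage day 14 was 1.56 above lavage day 7 (limma adjusted p = 0.00783), a call lost without lavage day 7 replicate 2 (0.052) or lavage day 14 replicate 2 (0.0617). In the capsule Cd209b was 2.34 higher at day 14 than at day 7 (limma adjusted p = 0.000268).

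Cd209d (SIGN-R3) was, like Clec4g, higher in the lavage at day 7 and day 14 than at day 0. Its levels in capsule cells were 6.67 and 7.86 at day 7, 9.23 and 8.38 at day 14, 9.16 and 8.86 at day 21, and 8.94 and 8.96 at day 28. In lavage cells they were 6.37 and 5.98 at day 0, 7.74 and 7.15 at day 2, 6.80 and 7.15 at day 4, 9.60 and 9.37 at day 7, and 10.34 and 10.18 at day 14. The lavage arrays of day 7 and 14 lay above all capsule arrays. Relative to day 0, Cd209d changed by 3.31 at day 7 (SE 0.35, limma adjusted p = 8.95e-06) and by 4.08 at day 14 (limma adjusted p = 1.42e-06). Capsule cells differed from lavage by -2.22 at day 7 (limma adjusted p = 0.000341) and by -1.46 at day 14 (0.00485), the second lost without capsule day 14 replicate 2 (0.0707).

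Cd209a, the member usually called mouse DC-SIGN, read 10.90 and 11.44 in lavage cells of day 14, against 8.77 and 8.31 at day 0. The rise was 2.63 (SE 0.30, limma adjusted p = 2.29e-05), and day 14 was 1.62 above day 7 (limma adjusted p = 0.00276). At day 7 capsule cells had 7.11 and 7.93, against 9.57 and 9.54 in lavage cells, a difference of -2.04 (SE 0.30, limma adjusted p = 0.0002). Capsule levels were then 2.49 higher at day 14 than at day 7 (limma adjusted p = 6.6e-05) and stayed there, with means of 10.26 at day 21 and 10.06 at day 28. At day 14 capsule cells differed from lavage by -1.17 (limma adjusted p = 0.00741). That call was lost under median scaling (0.0736) and without lavage day 14 replicate 2 (0.0736) or capsule day 14 replicate 2 (0.0898).

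Cd209e was not detected in lavage of day 0 or 2. It was at least 3.19-fold above day 0 at day 7 (limma adjusted p = 0.00124) and at least 2.45-fold at day 14 (0.0069), the second lost without lavage day 14 replicate 1 (0.0554). Its highest mean was in capsule cells of day 28, at 8.36 ± 0.14, against 6.33 ± 0.89 at capsule day 7 (SD, n = 2 each), a difference of 2.03 (SE 0.42, limma adjusted p = 0.00261). The Cd209 genes are tandem copies on chromosome 8, so their probes may share signal.

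As a group, 4 of the 5 tested DC-SIGN relatives were higher at lavage day 14 than at day 0 and 1, Cd209b, was lower, where 19.8% of all genes changed. Capsule cells had 4 of the 5 lower than lavage at day 7 and at day 14, where 12.5% and 18.4% of all genes were lower, and Cd209e differed by -1.01 and 0.10. In the capsule all 5 were higher at day 28 than at day 7, where 16.2% of all genes were higher.

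Clec10a takes up galactose-bearing ligands and serves as a marker of alternatively activated macrophages. Capsule cells read 13.11 and 13.45 at day 7, 11.37 and 10.64 at day 14, 11.31 and 11.12 at day 21, and 11.30 and 11.38 at day 28. Lavage cells had 11.10 and 11.40 at day 0, 11.55 and 11.30 at day 2, 12.27 and 12.50 at day 4, 12.98 and 12.66 at day 7, and 12.28 and 12.55 at day 14. The day 7 capsule arrays were above all others, and the later capsule arrays lay at or below the higher arrays of lavage day 0 and 2.

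Clec10a was 1.13 higher at lavage day 4 than at day 0 (SE 0.23, limma adjusted p = 0.00196), 1.57 higher at day 7 (0.000139) and 1.16 higher at day 14 (0.00212). In the capsule it fell by 2.28 at day 14 relative to day 7 (SE 0.23, limma adjusted p = 1.86e-05). At day 14 capsule cells differed from lavage by -1.41 (limma adjusted p = 0.000265), while the day 7 difference was 0.46. The change between these differences was -1.87 (SE 0.32, limma adjusted p = 0.00243). Its relative Mgl2, no member by symbol, was 3.80 above day 0 at lavage day 7 (SE 0.16, limma adjusted p = 2.58e-09) and held in the capsule, at 15.19 ± 0.26 at day 14 against 15.27 ± 0.21 at day 7 (SD, n = 2 each). Clec4f, a receptor known from Kupffer cells, was detected on both arrays in capsule cells of day 21 and 28 only, at means of 5.75 and 5.95.

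The Clec2 genes encode ligands of NKR-P1 receptors on natural killer cells. Of 7, only Clec2d and Clec2i were tested. Clec2d, whose product restrains killing, was detected on all arrays and passed in 0 of the 14 pairwise comparisons, with group means from 11.47 to 12.42. Clec2i fell by 1.72 in capsule cells of day 28 relative to day 7 (SE 0.39, limma adjusted p = 0.0047), and only 1 array of the day 28 group was detected.

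Clec16a, an intracellular protein of autophagy and no receptor, differed by -1.48 between capsule day 28 and day 7 (SE 0.23, limma adjusted p = 0.000398) on its brightest probe. A second probe detected on all arrays gave 0.81 for the same comparison and correlated with the first at -0.64, so no direction is given for the gene. Clec11a, a secreted growth factor, was detected on both arrays only in capsule day 7, and Clec18a only in capsule day 28.

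Of 16 partners listed that carry or damp these receptors' signals, 15 were tested, and at lavage day 2 6 were higher than at day 0 and 0 lower, where 25% of all genes changed. Those higher included Fcer1g, by 0.47 (SE 0.15, limma adjusted p = 0.0311), and the phosphatase gene Ptpn6, by 0.70 (SE 0.14, limma adjusted p = 0.00171). Syk and Card9 did not pass in any of the 4 comparisons with day 0. In capsule cells of day 7, 3 partners were higher than in lavage and 4 lower, where 24.1% of all genes changed. Among those lower, Card9 differed by -0.97 (limma adjusted p = 0.0302) and Plcg2 by -0.72 (0.00776). At day 14, 1 was higher and 5, Syk among them, were lower, close to the 35.3% of all genes that changed. Src was higher at both days, by 1.40 (SE 0.22, limma adjusted p = 0.000413) and 0.92 (0.00553). In the capsule, 4 partners, Syk and Card9 among them, were lower at day 28 than at day 7 and 0 higher, where 31.2% of all genes changed.

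Tyrobp, whose product carries Clec5a, read 13.60 and 13.73 in capsule cells of day 7, 13.08 and 12.74 at day 14, 12.63 and 12.71 at day 21, and 12.62 and 12.61 at day 28. All 10 lavage arrays were higher, at 13.95 to 14.43. At day 14 it differed by -1.30 between capsule and lavage cells (SE 0.15, limma adjusted p = 2.09e-05), the same comparison in which Clec5a was 1.74 higher. Over the capsule course it fell by 1.05 at day 28 relative to day 7 (limma adjusted p = 0.000276).

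A list of 27 C-type lectin genes with other symbols had 18 tested. Among them 5 were higher and 3 lower in capsule than in lavage cells at day 14, where 35.3% of all genes changed (16.8% higher, 18.4% lower). Cd72, an inhibitory receptor known mainly from B cells, read 12.64 and 12.62 in capsule cells of day 14, against 8.67 and 8.71 in lavage cells, a difference of 3.94 (SE 0.32, limma adjusted p = 6.58e-07). B cell markers went the other way in the same comparison: 4 of 6 tested were lower in capsule cells and 1, Blnk, was higher. Mrc1, the mannose receptor, was 2.43 higher at lavage day 7 than at day 0 (SE 0.21, limma adjusted p = 1.36e-06) and 1.36 higher in capsule than in lavage cells at day 14 (limma adjusted p = 0.000186). Sele, the endothelial selectin, was at least 2.43-fold higher in capsule cells of day 14 than in lavage (limma adjusted p = 6.66e-05).

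Markers of stromal cells were present in capsule samples. The fibroblast list of 5 genes had a mean per array of 6.57 to 6.93 in capsule cells of day 14, against 5.10 to 5.36 in lavage cells, with Col3a1 and Lum not detected in either. The endothelial list ran from 5.98 to 6.00 in capsule cells of day 14, against 5.45 to 5.56 in lavage cells. Their part in the capsule differences of the members was not tested.

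The genes most like each of the 4 in their 9 group means were found by Pearson's r over all tested genes, as a description that shares the same arrays. Nearest to Clec4g were Aqp3 (r = 0.972), Nbl1 (0.948) and Lrrc1 (0.946), and among members Cd209a (0.901). Clec7a lay nearest to Atp6v0a1 (0.971), Lrp12 (0.959) and Srgn (0.957), with Clec5a (0.669) the nearest member. Closest to Clec4d was Csf3r (0.990), the receptor for granulocyte colony-stimulating factor, a gene of the neutrophil list, followed by Ovgp1 (0.981) and Apoc2 (0.976). Csf3r averaged 10.41 at lavage day 7, against 12.86 at day 0. Between these days 6 of 10 tested neutrophil markers were higher at day 7 and 2, Mmp9 and Csf3r, were lower, where 28.6% of all genes changed. The part of neutrophil RNA in the course of Clec4d was not tested. For Clec4e the nearest were Dusp8 (0.987), Fosl2 (0.986) and Cxadr (0.983), and among members Clec1a (0.916). Cxadr was detected on both arrays only in capsule day 14 and 21, and Clec1a only in capsule day 14, 21 and 28. Dusp8 was detected on 0 arrays at lavage day 0, 7 and 14, and Ovgp1 on 0 at lavage day 14. Nbl1 was detected on 0 arrays at lavage day 2 and 4 and at capsule day 7. The r values of these genes rest in part on background readings.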

How the data were processed

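RNA of sorted EGFP-bright cells was amplified, biotin-labelled and hybridised to Illumina mouse bead arrays, per the labels' protocols. Per the file headers, the deposited table pairs a linear intensity with a detection p-value, for 46632 probes on 18 arrays. The deposited series values are log2 values of the authors; BeadStudio and R 2.15.3 are named in the submitters' processing notes, and further steps are not given in the sources used here. Intensities were normalised with neqc (offset 16, quantile) in limma 3.58.1 under R 4.3.3. A probe entered (20985 did) if 1 or more groups had it detected on both arrays. Of all probes, 29976 had 1 symbol, 10 several and 16646 none, and only the first kind was used. The limma model held a mean for each group (9 residual degrees of freedom, prior 4.58), 14 comparisons and 2-sided tests. The procedure was tested on simulated data. Members, lists and alternatives were chosen with earlier results of these data known. All tested members may be named; from the partner and other-lectin lists, those named are the 4 called genes with the smallest F test p, with Mgl2, Fcer1g, Syk and Card9. Further genes named in counts or as markers were chosen after their values were seen or belong to the marker lists. Replicate numbers mark a shared slide in 6 groups, per the labels; deviations of same-numbered arrays correlated at -0.11 to 0.129 over 15 pairs. Alternatives were other background, scaling and filter settings, the authors' values, other probes, slide and replicate blocks, and each array left out.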

Additional observations from a re-analysis of the deposited data

Results flagged for a closer look

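The difference between capsule and lavage cells changed between day 7 and day 14 for 7 of the 23 tested members, by limma's test of the interaction, where 11.5% of all genes changed. It changed toward higher for Clec4e by 1.13 (limma adjusted p = 0.013) and for Clec4a3 by 0.67 (limma adjusted p = 0.0271). A second Clec4a3 probe, detected on all 18 arrays, gave -0.89, so no direction is given for that gene. The fitted change of Clec4g was 2.08 (limma adjusted p = 0.00829), but Clec4g was detected on 0 arrays of capsule day 7, so this value is no measured size. The difference changed toward lower for Clec10a by -1.87 (limma adjusted p = 0.00243) and for Clec4b1 by -1.57 (limma adjusted p = 0.00219). It also did so for Clec4n by -1.52 (limma adjusted p = 0.0365) and for Clec7a by -1.34 (limma adjusted p = 0.00399). For Clec7a the difference stayed positive, at 2.09 at day 7 and 0.75 at day 14. Only capsule day 14 lay on a slide of its own, so slide and this change cannot be told apart. The count was 4 without lavage day 14 replicate 1. Under median scaling, which moved the median of all genes by 0.53, the split was 5 higher and 2 lower, against 3 higher and 4 lower here, and Clec7a (0.162) and Clec4n (0.103) were no longer called. Without background correction Clec4g was at 0.74 (0.172). Clec4a3 was not called when any 1 of 7 of the 8 arrays compared was left out (limma adjusted p from 0.0549 to 0.0805), lavage day 14 replicate 2 being the exception. Clec4n was likewise not called without any 1 of 7 of them (from 0.0508 to 0.127), lavage day 7 replicate 2 being the exception, and Clec4e not without lavage day 14 replicate 1 (0.0569).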

How the results depend on the processing

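Of 123 calls of members over the 14 comparisons, 76 held under every alternative that could be fitted, other probes aside, and 47 were lost under at least 1. Median scaling lost 17 and reversed the sign of 1 more, no detection filter lost 7, no background correction 5, the authors' log2 values 4 and an offset of 50 lost 3. A replicate block over the 12 arrays of slides 1 and 2 lost 1 of 70 calls, Clec4b1 at lavage day 14 against day 0, where the change was 0.61 with and without the block and the limma adjusted p was 0.0741 with it; the same arrays without the block, an alternative chosen after seeing the data, also lost it (0.0634). Slide as a random block (correlation -0.063) lost 0 of 123. Between capsule day 28 and day 21, 2 members were called with an offset of 50, without background correction, under median scaling and at a detection p of 0.01, and 0 among the 15 detected on all arrays. Under that last filter capsule day 28 against day 7 had 11, and under median scaling lavage day 4 against day 2 had 2. The higher and lower split under median scaling was 8 and 4 for capsule day 14 against day 7, 12 and 5 for capsule day 28 against day 7, 3 and 8 for capsule against lavage at day 7, and 1 and 1 for lavage day 4 against day 2. Clec4a3 turned to 0.48 under median scaling for capsule against lavage at day 14. On the second probe of Clec4g, detected on 3 arrays, 8 comparisons turned sign: lavage day 7 against day 0 (-0.17) and day 4 (-0.15), capsule against lavage at day 7 (0.39) and day 14 (0.01), capsule day 14 against day 7 (-0.13), day 28 against day 21 (0.05) and day 7 (-0.26), and the change between days (-0.38). The causes were not tested. With each array left out in turn, the lone array of its group being assumed to vary like the others, the counts ran from 7 to 10 at lavage day 2, 7 to 10 at day 4, 8 to 11 at day 7 and 7 to 12 at day 14 against day 0. They ran from 1 to 5 for lavage day 4 against day 2, 7 to 11 for day 7 against day 4 and 3 to 5 for day 14 against day 7. For capsule against lavage they ran from 9 to 11 at day 7 and 6 to 13 at day 14, and from 4 to 7 for the change between them. In the capsule they ran from 9 to 13 for day 14 against day 7, 2 to 5 for day 21 against day 14, 1 to 2 for day 28 against day 21 and 14 to 19 for day 28 against day 7, and from 20 to 21 for the F test.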
